A study of Mus musculus with 12 samples.

Results

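The genes described here are 9 that carry or regulate the signal from the T cell receptor inward: the kinases Lck, Fyn, Zap70, Syk, Csk and Matk, the adaptors Lat and Lcp2, and the phospholipase Plcg1. They were chosen by name, and all 9 were found by symbol among the 43629 genes of the count table and were among the 13944 genes with enough counts to be tested. The libraries came from total RNA of FACS-sorted thymic pre-T cells (C57BL/6 strain), 4 biological replicates in each of 3 groups. The DCKO group held DN3-like cells of Zfp36l1fl/fl, Zfp36l2fl/fl, CD2cre mice, in which a Cre recombinase under CD2 control, active in lymphoid cells, removes both RNA-binding proteins. The DN3b and DN3a groups held control cells of Zfp36l1fl/fl, Zfp36l2fl/fl mice without Cre, so the floxed alleles were common to all 3 groups and the Cre was in DCKO only. DN3a and DN3b are successive stages of CD4- CD8- thymocytes, before and after beta selection. DCKO cells were not divided into these stages, so a difference from either control group can come from the mixture of stages as well as from the genotype, and these cannot be told apart. The labels do not state the age or sex of the mice, or how many stand behind a library.

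The pre-T cell receptor pairs a rearranged beta chain with an invariant partner and signals through the CD3 chains. The Src family kinases LCK and FYN phosphorylate the cytoplasmic tails of CD3. ZAP-70 or SYK, which are close relatives, then bind these tails and phosphorylate the adaptors LAT and SLP-76 (encoded by Lcp2), on which phospholipase C gamma 1 (Plcg1) is assembled and activated. CSK holds LCK and FYN in check by phosphorylating their inhibitory tyrosine, and MATK, also called CHK, is a relative of CSK. Both SYK and ZAP-70 can transmit the pre-T cell receptor signal in mouse thymocytes.

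Windows around RefSeq start sites of Zap70, Syk and Matk are shown because Zap70 and Matk had the largest fold changes among the members and Syk is the relative of Zap70. Each run covers 250 bases before to 50 bases after a RefSeq start site (build GRCm38.p6), 5′ to 3′ on the gene's strand, with E-boxes, the sequence CANNTG recognised by E proteins, in capitals.
Zap70 (chr1:36761548-36761847, plus strand): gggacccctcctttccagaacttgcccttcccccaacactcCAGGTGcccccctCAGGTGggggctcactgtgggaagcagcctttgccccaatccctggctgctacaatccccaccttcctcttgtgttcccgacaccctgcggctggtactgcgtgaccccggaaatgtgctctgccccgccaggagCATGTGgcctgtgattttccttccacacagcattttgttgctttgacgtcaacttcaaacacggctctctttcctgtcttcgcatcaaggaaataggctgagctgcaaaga
Syk (chr13:52583187-52583486, plus strand): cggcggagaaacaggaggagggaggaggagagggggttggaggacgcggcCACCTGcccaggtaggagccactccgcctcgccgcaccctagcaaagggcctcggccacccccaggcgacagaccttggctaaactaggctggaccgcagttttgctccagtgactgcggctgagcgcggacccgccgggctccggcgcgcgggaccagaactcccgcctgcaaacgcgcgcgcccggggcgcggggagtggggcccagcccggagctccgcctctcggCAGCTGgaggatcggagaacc
Matk (chr10:81252685-81252984, plus strand): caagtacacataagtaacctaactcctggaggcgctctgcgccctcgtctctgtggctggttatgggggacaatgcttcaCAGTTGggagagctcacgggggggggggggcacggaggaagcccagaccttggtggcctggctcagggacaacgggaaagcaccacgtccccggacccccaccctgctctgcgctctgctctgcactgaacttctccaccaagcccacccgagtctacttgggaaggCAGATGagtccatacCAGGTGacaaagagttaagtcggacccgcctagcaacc
The Zap70 and Matk windows held 3 E-boxes each and the Syk window 2, and 72.3% of all 32851 promoter windows held at least 1. The TCF and LEF word CTTTGA, searched on both strands, occurred once in the Zap70 window and in neither of the other 2, against 5257 of all 32851 windows. RefSeq lists 3 start sites for Zap70 and 2 each for Syk and Matk; the window nearest to the gene's annotated start is shown, which for Syk belongs to a start 264 bases inside the gene as GENCODE annotates it, and counts per gene do not tell which start was used.

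The libraries held 28479157 to 45975678 counts, and levels are given as CPM, read counts relative to library sizes scaled by the trimmed mean of M values (TMM). The targeted genes were depleted in DCKO, with Zfp36l1 at 2.33 ± 1.01 CPM in DCKO, 14.3 ± 6.13 in DN3b and 33.9 ± 7.15 in DN3a and Zfp36l2 at 63.9 ± 20.1, 364 ± 79.4 and 541 ± 145 in the same order (SD, n = 4). Pre-T cell markers were present in all libraries. Of the B cell markers, Pax5 did not exceed 0.032 CPM in any library, and 5 of the 7 stayed below 1 CPM in each group, while the whole list summed to 151 to 195 CPM in DCKO, 244 to 385 in DN3b and 119 to 164 in DN3a through Ighm and Cd79b. Myeloid markers summed to 39.7 to 59.1 CPM in DCKO, 36.7 to 58.0 in DN3b and 60.6 to 68.3 in DN3a. DN3b library 1 stood apart from the other DN3b libraries: its level of Ptcra, which encodes the invariant pre-T cell receptor chain, was 129 CPM against 37.8 to 41.5 CPM in the other 3, and it held the highest DN3b level of 7 of the 9 members. DN3a library 1, its pair by replicate number, likewise had the highest Ptcra of its group, 237 CPM against 92.6 to 122 CPM in the other 3, and the highest DN3a level of 6 members. Results that moved without either are given beside their values. DCKO library 1 had 13.7% of its counts on its 10 most counted genes, against 5.43% to 9.28% in the other 11 libraries, and without DCKO libraries 1 and 2 together the same members were called in all 3 comparisons.

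In a fit across all genes (edgeR's quasi-likelihood test, adjusted p threshold 0.05), 3 of the 9 members fell in DCKO relative to DN3a and 0 rose, while 60.2% of all genes tested changed, 30.7% up and 29.5% down. The 3 were Matk, Plcg1 and Syk. Relative to DN3b, 2 of the 9 fell in DCKO, Matk and Zap70, and 0 rose, while 18.9% of all genes changed, 10.3% up and 8.58% down. Without DN3b library 1, 4 members passed, Lcp2 and Lat being the added ones, both higher in DCKO, and all genes called were 2395 in place of 2635. In DN3b relative to DN3a, Zap70 and Csk rose and Syk, Plcg1, Lcp2 and Lat fell, 6 of the 9, while 52.6% of all genes changed, 27.4% up and 25.2% down. This fit does not use the pairing of the control libraries by replicate number. With the number as a block 7 members passed, Lck being the added one, lower in DN3b. All genes called were then 9233 in place of 7334. With TMM scaling the share of members called was thus below the background in the first comparison and near it in the others. By direction, the 3 of 9 lower in the first comparison were near the 29.5% of all genes lower. Upper quartile scaling called 7 members there, all lower, and 8647 of the 13944 genes, 5528 of them lower. The median absolute log2 fold change of the members was 0.25 in DCKO against DN3a, 0.25 in DCKO against DN3b and 0.49 in DN3b against DN3a, and that of all tested genes was 0.62, 0.29 and 0.52 in the same order. The libraries of the groups did not overlap for 4 members lower in DCKO than in DN3a (Matk, Plcg1, Syk and Lcp2) and for 0 higher, against 54.9% of all genes, 27.1% lower and 27.8% higher. Between DCKO and DN3b this held for Matk and Zap70, lower, and Lcp2, higher, against 20.9% of all genes, 9.87% lower and 11% higher. Between DN3b and DN3a it held for Zap70 and Csk, higher, and Syk, Lcp2 and Plcg1, lower, against 47.9% of all genes, 24.8% higher and 23% lower. The comparisons share libraries and are not independent of each other. In the authors' deposited tables the numbers of members past an adjusted p of 0.05 were 3, 2 and 6 in the same order.

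**Figure D1:**
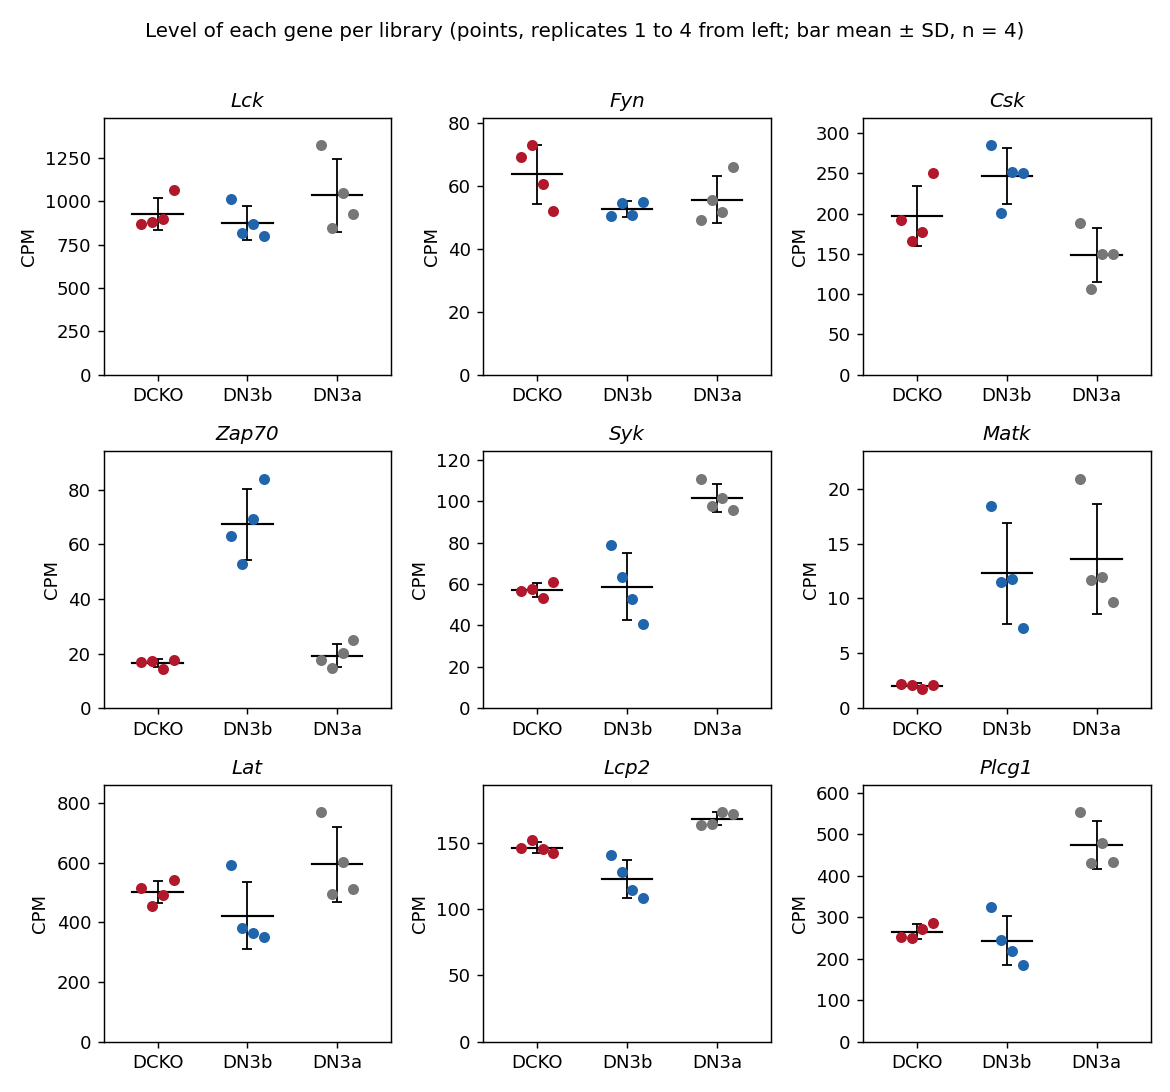
Level of each gene in CPM (y axis, from 0) in the DCKO, DN3b and DN3a libraries (x axis); points are libraries, the horizontal bar is the mean and the error bar the SD (n = 4). Zap70 is high in DN3b only, Matk is low in DCKO only, and Syk and Plcg1 are high in DN3a only.

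Zap70 (ENSMUSG00000026117, GRCm38 chromosome 1, 36761798 to 36782818) encodes the kinase that docks on phosphorylated CD3 chains. It stood at 16.9, 17.1, 14.3 and 17.5 CPM in DCKO libraries 1 to 4, at 63.1, 53.0, 69.2 and 84.1 CPM in DN3b and at 17.5, 14.6, 20.1 and 24.8 CPM in DN3a. Every DN3b library lay above every library of the other groups, and the DCKO and DN3a libraries overlapped. Zap70 fell in DCKO relative to DN3b by 2.03 ± 0.18 (SE) on the log2 scale, a 4.09-fold lower level (edgeR adjusted p = 1.2e-05). In DN3b relative to DN3a it rose by 1.81 ± 0.17 (adjusted p = 2.6e-05). Between DCKO and DN3a the log2 fold change was -0.22 ± 0.17 (adjusted p = 0.272). With upper quartile scaling, which moved the median of all genes in this comparison to -0.26 from -0.04, it passed at -0.44 (adjusted p = 0.028). Markers of CD4 and CD8 thymocytes, which lie beyond the DN stages, summed to 9.20 to 36.7 CPM in DCKO, 25.002 to 63.4 CPM in DN3b and 4.16 to 4.87 CPM in DN3a. Markers of cytotoxic lymphocytes, which also use ZAP-70, summed to 278 to 481 CPM in DCKO, 404 to 576 CPM in DN3b and 152 to 271 CPM in DN3a, with 6 of their 8 genes below 1 CPM in each group and most of the sum from Gzma. Nkg7 of the same list went the other way, at 17.8 to 29.4 CPM in DCKO, 6.21 to 27.6 CPM in DN3b and 54.5 to 57.7 CPM in DN3a. The part of these cells in the Zap70 level was not tested, and in bulk samples fewer cells of a type and less RNA per cell cannot be told apart.

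Syk (ENSMUSG00000021457, chromosome 13, 52583173 to 52648792), the close relative of Zap70, is also used by B cells and myeloid cells. It stood at 56.8, 57.5, 53.2 and 61.1 CPM in DCKO, at 78.8, 63.2, 52.6 and 40.5 CPM in DN3b and at 111, 97.8, 101 and 95.9 CPM in DN3a. All DN3a libraries lay above all DCKO and DN3b libraries, and the DCKO values fell within the wider DN3b range. Syk fell by 0.83 ± 0.16 on the log2 scale in DCKO relative to DN3a (adjusted p = 0.00064) and by 0.79 ± 0.16 in DN3b relative to DN3a (adjusted p = 0.0013). Between DCKO and DN3b the difference was -0.04 ± 0.16 (adjusted p = 0.879), and without DN3b library 1 it was 0.13 (adjusted p = 0.539). Among B cell markers Cd79b was likewise lower, at 18.4 to 24.1 CPM in DCKO and 9.40 to 31.7 CPM in DN3b against 41.7 to 58.1 CPM in DN3a, whereas Ighm was higher, at 130 to 175 CPM in DCKO and 212 to 375 CPM in DN3b against 61.0 to 117 CPM in DN3a. The part of other cells in the Syk level was not tested.

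The balance within this kinase pair was also read within each library, as the ratio of counts per kilobase of annotated exon, which does not depend on library scaling. Zap70 to Syk stood at 0.934, 0.931, 0.842 and 0.898 in DCKO, at 2.51, 2.62, 4.12 and 6.49 in DN3b and at 0.494, 0.467, 0.620 and 0.810 in DN3a. The 3 groups did not overlap: per unit length Zap70 was above Syk in all DN3b libraries and below it in all DCKO and DN3a libraries. On the log2 scale the difference of mean ratios was -2.01 in DCKO against DN3b and 0.63 in DCKO against DN3a. The ratio was 6.24-fold higher in DN3b than in DN3a. Each of these differences reached p = 0.0286 in a two-sided exact permutation test, the smallest that 4 against 4 libraries allow, and 0.0514 after Benjamini-Hochberg adjustment over the 9 ratio tests made, which misses the threshold. This test does not use the pairing of the control libraries by replicate number. Within numbers the ratio was higher in DN3b in 4 of 4 pairs, by 5.07 to 8.01 times, and an exact test within pairs cannot go below p = 0.125. The exon lengths used were 2992 bases for Zap70 and 9362 for Syk, counting every annotated exon, so the height of the ratio depends on which exons are used, and the differences between groups do so only if the isoforms differ.

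**Figure D2:**
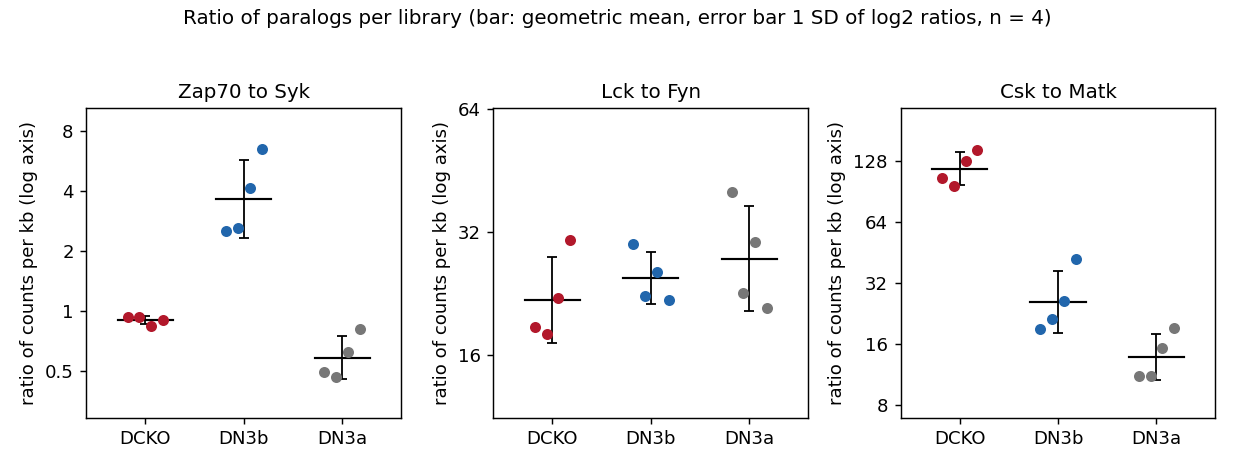
Ratio of counts per kilobase (y axis, log scale) for the related kinases Zap70 and Syk, Lck and Fyn, and Csk and Matk in DCKO, DN3b and DN3a libraries (x axis); points are libraries, bars the geometric mean and error bars 1 SD of the log2 ratios (n = 4). The Zap70 to Syk ratio lies from 0.842 to 0.934 in DCKO, 2.51 to 6.49 in DN3b and 0.467 to 0.810 in DN3a, and the Csk to Matk ratio is highest in DCKO.

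Among the Src family kinases that start the signal, Lck was the most abundant member per length in all 3 groups. Lck (ENSMUSG00000000409, chromosome 4, 129548344 to 129573641) stood at 868 to 1067 CPM in DCKO, 801 to 1013 CPM in DN3b and 845 to 1325 CPM in DN3a. These ranges overlapped, and its log2 fold change was -0.16 ± 0.14 in DCKO against DN3a (adjusted p = 0.35), 0.08 ± 0.14 in DCKO against DN3b (adjusted p = 0.717) and -0.24 ± 0.14 in DN3b against DN3a (adjusted p = 0.167). With replicate number as a block, which pairs the control libraries, the last of these was -0.25 and passed (adjusted p = 0.0201); upper quartile scaling called it as well (-0.39, adjusted p = 0.0325), and called Lck in DCKO against DN3a (-0.38, adjusted p = 0.0309). Fyn (ENSMUSG00000019843, chromosome 10, 39368855 to 39565381) stood at 51.9 to 72.8 CPM in DCKO, 50.4 to 54.7 CPM in DN3b and 49.1 to 66.0 CPM in DN3a. It missed the threshold in all 3 comparisons, with log2 fold changes of 0.20 ± 0.12 (adjusted p = 0.177), 0.27 ± 0.12 (adjusted p = 0.13) and -0.08 ± 0.12 (adjusted p = 0.604) in the same order. Without DCKO library 4 Fyn passed at 0.29 against DN3a (adjusted p = 0.0457) and at 0.36 against DN3b (adjusted p = 0.0395). The Lck to Fyn ratio of counts per kilobase ran from 18.02 to 30.6 in DCKO, 21.8 to 29.9 in DN3b and 20.9 to 40.2 in DN3a. These ranges overlapped, and the 3 exact permutation tests gave adjusted p = 0.331 to 0.571.

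Csk and Matk are the negative regulator of these kinases and its relative. Csk (ENSMUSG00000032312, chromosome 9, 57626646 to 57653631) stood at 193, 167, 178 and 251 CPM in DCKO, at 285, 200, 252 and 250 CPM in DN3b and at 189, 106, 150 and 150 CPM in DN3a. All DN3b libraries lay above all DN3a libraries, and DCKO overlapped both. Csk rose in DN3b relative to DN3a by 0.73 ± 0.18 on the log2 scale, 1.66-fold (adjusted p = 0.0038). In DCKO the log2 fold change was 0.41 ± 0.18 against DN3a (adjusted p = 0.06), which passed without DN3a library 1 (0.54, adjusted p = 0.0184), and -0.33 ± 0.17 against DN3b (adjusted p = 0.207).

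Matk (ENSMUSG00000004933, chromosome 10, 81252935 to 81263365) was the least abundant member and had the largest changes in DCKO among the 9. It stood at 2.22, 2.12, 1.70 and 2.11 CPM in DCKO, from 55 to 76 counts a library, at 18.5, 11.5, 11.8 and 7.29 CPM in DN3b and at 20.9, 11.7, 11.99 and 9.65 CPM in DN3a. Every DCKO library lay below every control library, and the control stages overlapped. Matk fell in DCKO by 2.74 ± 0.30 on the log2 scale relative to DN3a, 6.67-fold (adjusted p = 1.3e-05). Relative to DN3b it also fell, with a log2 fold change of -2.596 ± 0.30, or 6.05-fold (adjusted p = 0.00013). Between DN3b and DN3a its log2 fold change was -0.14 ± 0.28 (adjusted p = 0.688), with the opposite sign without DN3a library 1 (0.14) or DN3b library 4 (0.026), which each break a pair. Within replicate numbers Matk was lower in DN3b in 4 of 4 pairs, and with the number as a block it stood at -0.18 (adjusted p = 0.143). The Csk to Matk ratio of counts per kilobase was 106, 96.2, 128 and 145 in DCKO, 19.0, 21.3, 26.2 and 42.1 in DN3b, and 11.1, 11.1, 15.3 and 19.1 in DN3a. DCKO lay apart from both control groups, 8.50-fold above DN3a and 4.53-fold above DN3b (p = 0.0286 in each two-sided exact permutation test, 0.0514 adjusted over the 9). DN3b and DN3a overlapped (exact permutation p = 0.0571, adjusted p = 0.0857). This test does not use the pairing of the control libraries by replicate number: within numbers the ratio was higher in DN3b in 4 of 4 pairs, by 1.71 to 2.21 times, with p = 0.125 in the exact test within pairs, the smallest that 4 pairs allow.

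**Figure D3:**
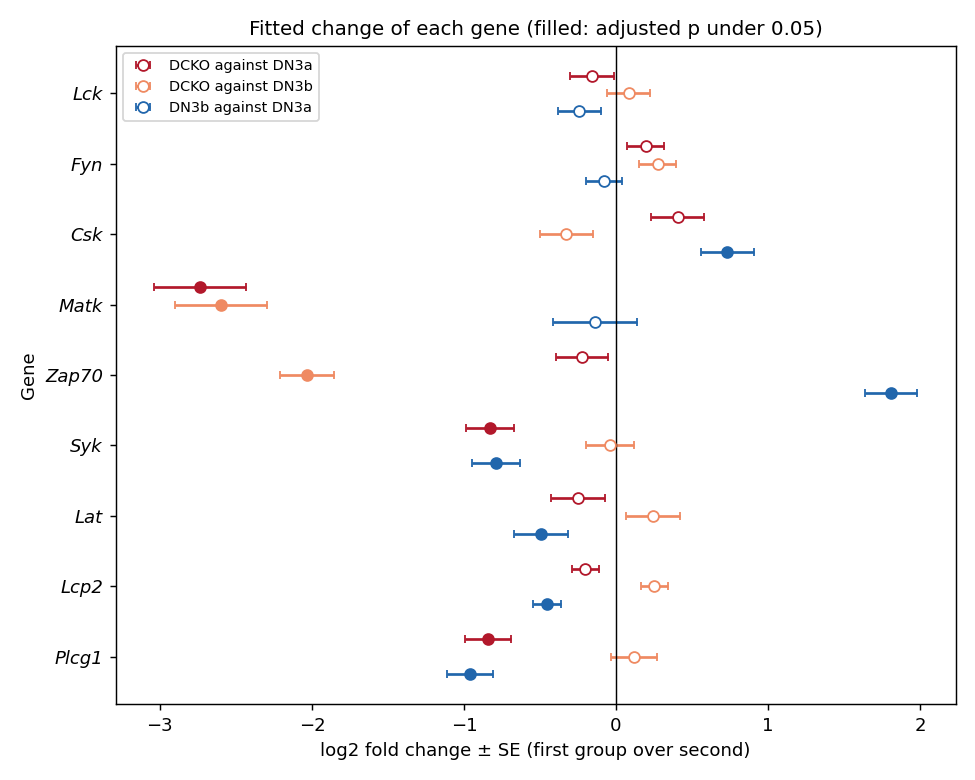
Fitted log2 fold change (x axis, first group over second) with its SE for each gene (y axis) in the 3 comparisons; filled points passed an adjusted p of 0.05 and open points did not. Matk lies at -2.74 and -2.596 in the DCKO comparisons, and Zap70 lies at -2.03 in DCKO against DN3b and 1.81 in DN3b against DN3a.

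Of the adaptors, Lcp2 (ENSMUSG00000002699, chromosome 11, 34046920 to 34092295), which encodes SLP-76, varied least between replicates in DCKO and DN3a. It stood at 146, 152, 145 and 142 CPM in DCKO, at 141, 128, 114 and 108 CPM in DN3b and at 163, 164, 173 and 172 CPM in DN3a. The 3 groups did not overlap, with DCKO between DN3b and DN3a. Lcp2 fell in DN3b relative to DN3a by 0.45 ± 0.09 on the log2 scale (adjusted p = 0.0011). In DCKO the log2 fold change was -0.20 ± 0.09 against DN3a (adjusted p = 0.066) and 0.25 ± 0.09 against DN3b (adjusted p = 0.065), both near the threshold. Against DN3a it passed when scaled by the upper quartile (-0.42), under a stricter filter on low counts (-0.27), with the 8 libraries of the comparison alone (-0.24) or without any single DN3b library (-0.23 to -0.20; adjusted p = 0.0013 to 0.0453 over all these). Against DN3b it passed with DESeq2 (0.27, adjusted p = 0.0244) and without DN3b library 1 (0.33, adjusted p = 0.0191).

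Lat (ENSMUSG00000030742, chromosome 7, 126363824 to 126369570), the membrane scaffold, stood at 515, 454, 491 and 542 CPM in DCKO, at 591, 382, 364 and 352 CPM in DN3b and at 769, 495, 601 and 512 CPM in DN3a. DN3b library 1 reached the DN3a range and the other 3 DN3b libraries lay below it. Lat fell in DN3b relative to DN3a by 0.49 ± 0.18 on the log2 scale (adjusted p = 0.033). The call was lost without DN3a library 1 (-0.35, adjusted p = 0.0979) or 3 (-0.49, adjusted p = 0.0645), without DN3b library 2 (-0.46, adjusted p = 0.0758), 3 (-0.44, adjusted p = 0.0874) or 4 (-0.43, adjusted p = 0.0849), and with the 8 control libraries alone (-0.52, adjusted p = 0.054). None of these fits uses the pairing of the control libraries by replicate number. Within numbers Lat was lower in DN3b in 4 of 4 pairs, at 0.606 to 0.772 times the DN3a level. With the number as a block the call held. In DCKO the log2 fold change was -0.25 ± 0.18 against DN3a (adjusted p = 0.243), which passed with upper quartile scaling (-0.47, adjusted p = 0.0324). It was 0.25 ± 0.18 against DN3b (adjusted p = 0.358), and without DN3b library 1 it was 0.45 (adjusted p = 0.0482).

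Plcg1 (ENSMUSG00000016933, chromosome 2, 160731300 to 160775760) encodes the phospholipase that makes the second messengers of the signal. It stood at 252, 249, 273 and 287 CPM in DCKO, at 325, 246, 218 and 186 CPM in DN3b and at 553, 432, 479 and 433 CPM in DN3a. As for Syk, all DN3a libraries lay above all others, and DCKO fell within the DN3b range. Plcg1 fell by 0.84 ± 0.15 on the log2 scale in DCKO relative to DN3a (adjusted p = 0.00043) and by 0.96 ± 0.15 in DN3b relative to DN3a (adjusted p = 0.00027). Between DCKO and DN3b the difference was 0.12 ± 0.15 (adjusted p = 0.612), and without DN3b library 4 it was -0.0059. Stromal markers were likewise higher in DN3a, with sums of 8.61 to 16.8 CPM in DCKO, 12.4 to 45.7 CPM in DN3b and 74.9 to 129.6 CPM in DN3a, almost all from Epcam with the other 4 genes below 1 CPM, and their part in the Plcg1 level was not tested. The log2 CPM of Syk and Plcg1 had a Pearson r of 0.97 over the 12 libraries, the highest of the 36 pairs of members, and that of Zap70 and Lcp2 was -0.78, the lowest; these points share group and library scaling. Antisense genes overlap 282 exonic bases of Lcp2 and, as 2 genes, 248 and 379 of Plcg1, and a short RNA gene lies within an exon of Lck and of Lat. Whether reads from these stretches were counted for either gene or left out is not known.

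Per kilobase of annotated exon, the order of the members was led by Lck and Lat in every group, at 317 ± 31.9 and 181 ± 13.5 CPM per kb in DCKO, 299 ± 32.6 and 153 ± 40.9 in DN3b, and 354 ± 71.8 and 215 ± 45.2 in DN3a (SD, n = 4). Matk was last in every group, at 0.443 ± 0.0498 CPM per kb in DCKO, 2.67 ± 1.01 in DN3b and 2.95 ± 1.09 in DN3a. The middle of the order differed: Zap70 ranked sixth in DN3b (22.5 ± 4.34 CPM per kb, above Fyn and Syk without overlap) and eighth in DCKO (5.50 ± 0.490, overlapping Syk at 6.10 ± 0.350) and in DN3a (6.43 ± 1.45, below Syk at 10.8 ± 0.717 without overlap). Plcg1 and Lcp2 overlapped in DCKO and DN3b, as did Lcp2 and Zap70 in DN3b, Csk and Lcp2 in DN3a, and Fyn and Syk in DN3a.

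ZFP36L1 and ZFP36L2 bind AU-rich elements in 3′ untranslated regions, so the principal GENCODE M21 transcript of each member was searched on the sense strand for TATTTAT, a binding site known for this family. Of the 9 members Lcp2 alone held it, once, starting at base 163 of its 1608-base 3′ untranslated region, where the match is in capitals and ATTTA is contained in it.
Lcp2 site: ccacatgattTATTTATtttctttgat
Among 3′ untranslated regions of similar length, 35.7% held the word. The shorter core ATTTA occurred 4 times in Fyn, 3 times in Syk and 2 times in Lcp2, and in no other member. Of regions as long as these, 84.0%, 95.9% and 87.0% held it, and of all regions 67.1%. The regions of Zap70 and Matk were 234 and 119 bases long, and of regions of like length 7.49% and 3.59% held TATTTAT. A match describes the letters, not binding.

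The wider pathway was taken from a list of 73 genes in 4 roles, of which 71 could be tested; Frk and Yes1 had too few counts. In DCKO relative to DN3a, 33 of the 71 fell and 11 rose, with a median log2 fold change of -0.36 against -0.04 for all tested genes. Upper quartile scaling gave 42 lower and 2 higher, and it moved all genes the same way, to 5528 lower and 3119 higher in place of 4116 and 4275. In DCKO relative to DN3b, 8 fell and 10 rose, or 11 and 8 with upper quartile scaling, where all genes gave 1644 lower and 1051 higher in place of 1197 and 1438. This total of 18 was 11 without DN3b library 3 and 7 without DCKO libraries 1 and 2 together, when all genes called were 1601 and 950 in place of 2635. In DN3b relative to DN3a, 25 fell and 3 rose, with a median of -0.24 against -0.02, and with replicate number as a block 34 fell and 11 rose, when all genes gave 4704 lower and 4529 higher in place of 3519 and 3815. Of all genes, 29.5% were lower and 30.7% higher in DCKO than in DN3a, 8.58% lower and 10.3% higher in DCKO than in DN3b, and 25.2% lower and 27.4% higher in DN3b than in DN3a. The counts for DCKO against DN3b are near that background, and no list test was made.

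By role, of 29 adaptors and exchange factors 11 fell and 2 rose in DCKO relative to DN3a, and 11 fell and 1 rose in DN3b relative to DN3a. The shares of all genes were 29.5% lower and 30.7% higher in the first of these comparisons, and 25.2% lower and 27.4% higher in the second. Lax1, an adaptor that dampens receptor signals, averaged 23.5 ± 5.03 CPM in DCKO, 31.7 ± 6.27 in DN3b and 71.6 ± 7.48 in DN3a, and fell by 1.61 ± 0.17 on the log2 scale in DCKO relative to DN3a (adjusted p = 1.1e-05) and by 1.17 ± 0.17 in DN3b relative to DN3a (0.00015). Vav3, a guanine nucleotide exchange factor, fell by 1.54 ± 0.24 in DN3b relative to DN3a (adjusted p = 0.00022) and also fell in DCKO relative to DN3a (-1.16 ± 0.23, adjusted p = 0.00093). Sh2d1a, which encodes the adaptor SAP, had a pattern like that of Zap70: it averaged 38.8 ± 11.1 CPM in DCKO, 105 ± 27.9 in DN3b and 41.7 ± 10.6 in DN3a, and fell by 1.43 ± 0.24 in DCKO relative to DN3b (adjusted p = 0.0017).

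Of 12 phosphatases and ubiquitin ligases 7 fell and 2 rose in DCKO relative to DN3a, and 3 fell and 2 rose relative to DN3b. The shares of all genes were 29.5% lower and 30.7% higher relative to DN3a, and 8.58% lower and 10.3% higher relative to DN3b. Dusp22, a phosphatase reported to act on LCK, averaged 0.271 ± 0.0957 CPM in DCKO, 2.25 ± 0.553 in DN3b and 1.75 ± 0.565 in DN3a. It fell in DCKO with a log2 fold change of -2.68 ± 0.34 relative to DN3a (adjusted p = 3.4e-05) and -3.04 ± 0.34 relative to DN3b (adjusted p = 0.0001). Its level was low throughout, at 0.157 to 0.390 CPM in DCKO and at most 3.06 CPM in DN3b and 2.48 CPM in DN3a. These changes thus rest on few reads in DCKO. Ptpn22, a phosphatase that acts on LCK and ZAP-70, fell by 1.06 ± 0.14 in DCKO relative to DN3a (adjusted p = 4.4e-05). Its log2 fold change was also negative in DN3b against DN3a (-0.85 ± 0.14, adjusted p = 0.00032), and DCKO against DN3b missed the threshold (-0.20 ± 0.14, adjusted p = 0.328). Ptpn6, which encodes SHP-1, fell by 0.70 ± 0.13 in DCKO relative to DN3b (adjusted p = 0.0029) and also fell relative to DN3a (-0.64 ± 0.13, adjusted p = 0.001). Cblb, a ubiquitin ligase that restrains the receptor, averaged 49.7 ± 8.77 CPM in DN3b against 164 ± 46.6 in DN3a, with a log2 fold change of -1.72 ± 0.22 (adjusted p = 7e-05). In DCKO it averaged 65.3 ± 16.3 CPM and was also lower than in DN3a (-1.33 ± 0.21, adjusted p = 0.00019). Ptpn11 (0.40 ± 0.09, adjusted p = 0.0018) and Ptpn2 (0.36 ± 0.09, 0.0032) rose in DCKO relative to DN3a, and neither passed with upper quartile scaling (0.18, adjusted p = 0.0868; 0.14, adjusted p = 0.216). Ptpn2 also rose relative to DN3b (0.39 ± 0.09, adjusted p = 0.008), a call lost without DCKO libraries 1 and 2 together (0.37, adjusted p = 0.0719).

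Of 21 second messenger genes 11 fell and 5 rose in DCKO relative to DN3a, and 4 fell and 4 rose relative to DN3b. Among all genes 29.5% fell and 30.7% rose relative to DN3a, and 8.58% fell and 10.3% rose relative to DN3b. Plcg2, the phospholipase related to Plcg1 that serves the B cell receptor, averaged 80.8 ± 12.2 CPM in DCKO, 34.4 ± 7.53 in DN3b and 31.7 ± 3.75 in DN3a, and rose by 1.35 ± 0.16 on the log2 scale relative to DN3a (adjusted p = 1.9e-05) and by 1.23 ± 0.16 relative to DN3b (0.00025). The regulatory subunit of calcineurin Ppp3r1 rose by 1.07 ± 0.17 in DCKO relative to DN3a (adjusted p = 0.00017) and by 0.71 ± 0.17 relative to DN3b (0.012). The catalytic subunit gene Ppp3cb rose by 0.48 ± 0.13 relative to DN3a (adjusted p = 0.0068) and by 0.57 ± 0.13 relative to DN3b (0.0094). The latter call was lost without DCKO libraries 1 and 2 together (0.58, adjusted p = 0.0644). Ppp3ca, another catalytic subunit gene, went the other way relative to DN3a (-0.40 ± 0.14, adjusted p = 0.025). Relative to DN3b it missed the threshold (0.33 ± 0.14, adjusted p = 0.117). Bcl10, an adaptor on the way to NF-kappaB, rose in DCKO relative to DN3b (0.41 ± 0.10, adjusted p = 0.012), a call lost without DN3b library 3 (0.35, adjusted p = 0.0592) or without DCKO libraries 1 and 2 together (0.39, adjusted p = 0.0721). Relative to DN3a Bcl10 also rose (0.32 ± 0.10, adjusted p = 0.013). The transcription factor gene Nfatc2 fell by 2.03 ± 0.26 in DCKO relative to DN3a (adjusted p = 4e-05). Its log2 fold change was also negative in DN3b against DN3a (-1.29 ± 0.26, adjusted p = 0.0011), and DCKO against DN3b missed the threshold (-0.74 ± 0.26, adjusted p = 0.065). Nfatc3 rose by 0.77 ± 0.17 in DN3b relative to DN3a (adjusted p = 0.0023), and the kinase gene Prkcq fell by 0.81 ± 0.12 there (0.00019). Relative to DN3a, DCKO changed the same way for Nfatc3 (0.62 ± 0.17, adjusted p = 0.007) and Prkcq (-0.73 ± 0.12, adjusted p = 0.00025).

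Of 9 tested Src and Tec family kinases outside the members, 4 fell and 2 rose in DCKO relative to DN3a, 0 fell and 2 rose relative to DN3b, and 3 fell and 0 rose in DN3b relative to DN3a. Among all genes 29.5% fell and 30.7% rose, 8.58% fell and 10.3% rose, and 25.2% fell and 27.4% rose in the same order.

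**Figure D4:**
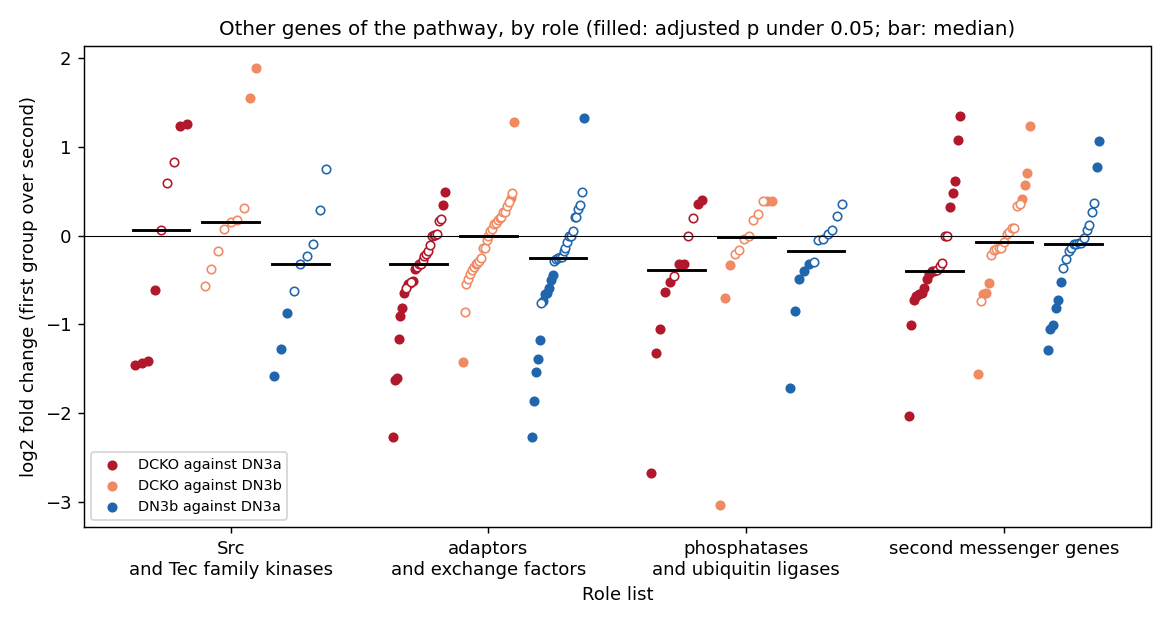
Log2 fold change (y axis, first group over second) of the 71 tested genes of the wider pathway, by role list (x axis) and comparison; filled points passed an adjusted p of 0.05, and the black bar is the median of a list. Of the 29 adaptors and exchange factors, 11 have filled points below 0 in DCKO against DN3a, 11 in DN3b against DN3a and 1 in DCKO against DN3b. The shares of all tested genes called lower were 29.5%, 25.2% and 8.58% in the same order.

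For each member the genes most like it over the 12 libraries were found by Pearson's r of log2 CPM among 8558 genes with a mean of at least 3. For Zap70 these were B4gat1 (r = 0.97), Myo1g (0.97) and Adcy3 (0.96), and for Matk Slc50a1 (0.98), Pdlim2 (0.98) and Slc36a1 (0.97). Syk was closest to Slfn2 (0.99), Cyp4f16 (0.99) and Calcoco1 (0.99), Plcg1 to Ptpre (0.98), Wdr13 (0.98) and Prkch (0.98), and Lcp2 to Ern1 (0.98), Tgfbr3 (0.98) and Gbp4 (0.98). Csk was closest to Cactin (0.99), Strn4 (0.99) and Dhx38 (0.99), and Lat to Cd247, which encodes the zeta chain of the receptor (0.98), Bsdc1 (0.97) and Kyat1 (0.97). Lck was closest to Ldb1 (0.96), Pbx2 (0.95) and Coro1b (0.94), and Fyn to Tmem123 (0.94), Aplp2 (0.94) and Hspa13 (0.92). These likenesses rest on 3 groups of libraries that share scaling, and are descriptions.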

How the data were processed

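Per the labels, the total RNA (RNeasy Micro) was depleted of ribosomal RNA and sequenced as TruSeq stranded libraries. Build GRCm38, HTSeq, TopHat2 (2.0.12), DESeq2 (1.6.3) and Trim Galore are listed in the submitters' processing notes. The sources used here give neither the annotation release nor HTSeq's strand setting. The authors deposited raw counts per Ensembl gene, from which all values were computed. The deposited signal table holds these counts divided by 1 size factor per library and was used only to check this. The authors' deposited DESeq2 tables hold log2 fold changes, Wald scores with standard errors, and p-values; from these only the members' calls were used.

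Symbols, exon lengths and coordinates came from GENCODE M21 (GRCm38), which named 42548 of the 43629 IDs; promoters came from RefSeq (GRCm38.p6), where all 9 members matched. Genes passed edgeR's filterByExpr (count minimum 10). All 12 libraries entered 1 quasi-likelihood fit with group as the term (edgeR 4.0.16, R 4.3.3, 9 residual degrees of freedom), checked on simulated counts; tests were two-sided, with Benjamini-Hochberg adjustment over all genes. Alternatives used limma 3.58.1 and DESeq2 1.42.0. Ratios took a pseudocount of 0.5 counts. The members and lists were chosen with earlier results of these data known. Ppp3ca is given in addition, beside Ppp3cb. Named pathway genes are otherwise up to 4 called genes per direction and comparison with the smallest adjusted p, and the most similar genes are 3 per member, without predicted genes. A gene that this rule names and a marker gene are not reported here. Biological replication is per the series' design text. Replicate numbers paired the DN3b and DN3a libraries (correlations of deviations from 0.35 to 0.56 within numbers) and not DCKO with either. PCR copies are not separated from molecules, so spreads between replicates are given.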

Additional observations from a re-analysis of the deposited data

Results flagged for a closer look

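In 36 groups of 4 values (9 genes and 3 ratios in 3 groups), 2 had a library farther from the rest than Dixon's 95% limit for the gap relative to the range, where chance gives about 1 in 20 groups. Lck in DCKO library 4 stood at 1067 CPM, against 868 to 897 CPM in the other 3 DCKO libraries. DCKO library 4 also held the highest DCKO level of 6 of the 9 members. Without it all genes called in DCKO against DN3b were 3249 in place of 2635. Lat in DN3b library 1 stood at 591 CPM, against 352 to 382 CPM in the other 3 DN3b libraries; this library also held the highest DN3b level of 7 of the 9 members.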

How the results depend on the processing

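Of 567 recomputed fold changes of the 9 members, 537 kept direction and side of the threshold, 6 lost the call, 18 gained it and 6 changed sign; the cause of these changes was not tested. For the pathway genes named by rule, in the comparisons that named them, 475 of 483 held and 8 lost the call. The calls of Matk, Plcg1 and Syk in DCKO against DN3a and of Matk and Zap70 in DCKO against DN3b held in all alternatives run. With upper quartile scaling 7 members fell in DCKO against DN3a in place of 3, while all genes lower went to 5528 in place of 4116, and Fyn stood at -0.027. Leaving out 1 library turned the sign of Syk (range -0.20 to 0.13) and Plcg1 (-0.0059 to 0.29) in DCKO against DN3b, without DN3b library 1 and 4, and in DN3b against DN3a of Fyn (-0.14 to 0.018), without DN3a library 4, and Matk (-0.40 to 0.14), without DN3a library 1 or DN3b library 4. Leaving out 1 library gave 3 to 4, 2 to 4 and 5 to 6 members called in DCKO against DN3a, DCKO against DN3b and DN3b against DN3a. It gave 37 to 46, 11 to 20 and 26 to 34 pathway genes, and 7622 to 8699, 1601 to 3249 and 6253 to 7790 of all genes.

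With replicate number as a block, DCKO against DN3b gave 8 pathway genes and 1062 of all genes in place of 18 and 2635, DN3b against DN3a gave 45 pathway genes and 9233 of all genes in place of 28 and 7334, and the members called were 3, 2 and 7; the numbers do not pair DCKO with either control group. Without DCKO libraries 1 and 2 together, DCKO against DN3b gave 7 pathway genes and 950 of all genes. With a pseudocount of 5 the log2 ratio differences of Zap70 to Syk (0.63, -2.005 and 2.63) and Csk to Matk (3.005, 2.10 and 0.90) passed at adjusted p = 0.0429, since a sixth test then reached the smallest exact p; without DN3a library 4 the 4 differences from DN3a passed at the same value. Leaving out 1 library, they ranged from 0.52 to 0.78, -2.19 to -1.74 and 2.36 to 2.82 for Zap70 to Syk, and from 2.98 to 3.24, 2.03 to 2.42 and 0.67 to 1.06 for Csk to Matk. Those of Lck to Fyn ranged from -0.50 to -0.15, -0.34 to -0.09 and -0.29 to 0.024, and stood at 0.073 in DCKO against DN3b without DCKO libraries 1 and 2. The exact test within replicate numbers cannot go below 0.125. Of the 27 most similar genes, 14 were kept with upper quartile scaling, an alternative chosen after seeing the data.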
